A study of Mus musculus with 12 samples.

Results

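Dopamine, serotonin, noradrenaline and adrenaline act through receptors on the target cell, are made and broken down by a small set of enzymes, and are packed into vesicles and taken back up by transporters. This account follows 36 genes of that machinery in the mouse hippocampus: the 5 dopamine receptors, 14 serotonin receptors, 8 adrenergic receptors, 5 enzymes of synthesis and breakdown, and 4 transporters. A gene was taken where the platform annotation pairs its symbol with a transcript cluster (the array's unit of measurement, a set of probes along one gene) of that gene alone. This gave 30 genes, each with 1 cluster, of 19938 genes measured in this way. The other 6, all adrenergic receptors (Adra1a, Adra1d, Adra2a, Adra2b, Adrb1 and Adrb3), had no such cluster and were not analysed here. The adrenergic receptors are therefore represented by Adra1b and Adra2c.

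RNA came from the macrodissected hippocampus of 6 MSN and 6 ICR mice, all adult males without any drug treatment in the labels, and each mouse was measured on its own Mouse Gene 1.0 ST array. MSN (Madison) is an inbred strain with a manic phenotype, bred from outbred hsd:ICR mice, and hsd:ICR mice were the controls. MSN is 1 inbred line, so a difference between the groups is one between this line and the outbred stock. The deposited values are linear PLIER intensities, which have no unit of RNA amount, and levels are therefore compared between mice and not between genes. Changes are given as log2 fold changes of MSN over ICR, computed on log2(intensity + 16), and a gene was called where its Benjamini-Hochberg adjusted P-value from limma, over all 23410 clusters with a gene, was under 0.05.

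The cell bodies that make these transmitters lie outside the hippocampus, in the midbrain, the raphe and the locus coeruleus, whose axons reach it. What an array sees in hippocampal tissue is mainly RNA of the receiving cells: receptors, and the enzymes that neurons and glia of the tissue make themselves. Most of the receptors signal through G proteins. Drd1, Drd5, Htr4, Htr6 and Htr7 raise cAMP, the Drd2 and Htr1 families, Htr5a and Adra2c lower it, the Htr2 family and Adra1b act through phospholipase C, and Htr3a and Htr3b form an ion channel. In bulk tissue, fewer cells of a type and less RNA per cell cannot be told apart.

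The arrays had medians of 373 to 389 over clusters with a gene, and no correlation between 2 arrays was under 0.991. Over all 35556 clusters, with or without a gene, the medians ran from 270 to 298. One mouse stood apart. ICR replicate 3 carried transcripts of the cerebellum: Gabra6, a receptor subunit of cerebellar granule cells, read 4983 there against 47.2 to 88.7 in the other 11 mice, and 10 cerebellar markers summed to 23181 in it, against 3015 to 3191 in MSN mice and 3140 to 3540 in the other ICR mice. These markers were looked at after the data were seen. Results that rest on this mouse are given with and without it. Markers of hippocampal neurons were present in both strains, for example Prox1 of granule cells at 1326 ± 64.7 in MSN and 1177 ± 185 in ICR mice (SD, n = 6 each).

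None of the 30 genes was called different between the strains (limma), against 0.777% of all clusters tested, which were 0.303% called higher in MSN mice and 0.474% called lower. At an unadjusted P-value under 0.05 there were 3 of 30 genes, against 12.7% of all clusters, so the share among the monoamine genes was near the background. Of these, Htr5b and Slc18a2 were higher in MSN mice (5.18% of all clusters) and Maob lower (7.5% of all clusters). The lowest adjusted P-value was 0.134, for Htr5b. In 0 of the 30 did the strains fail to overlap, against 1.44% of all clusters, and without ICR replicate 3 the count was again 0, against 2.3%. Fold changes were above 0 in 15 and below 0 in 15 genes, and 45.5% of all clusters were above 0. Their median absolute size was 0.06 on the log2 scale, against 0.05 over all clusters.

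A miss of the threshold does not show equal levels, and the intervals say how far apart the strains could be. For 26 of the 30 genes the 95% interval (limma) lay within 1.25-fold in either direction. The 4 whose interval reached beyond it were Drd2, Htr2c, Htr5b and Slc18a2, in each case on the side of a higher level in MSN mice. The plot of fold changes shows these intervals. Without ICR replicate 3, again 0 of the 30 genes were called (0.824% of all clusters), and 4 had an unadjusted P-value under 0.05 (13.8% of all clusters). These were Htr5b and Slc18a2, higher in MSN mice (5.21% of all clusters), and Htr3a and Htr6, lower (8.61% of all clusters).

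**Figure D1:**
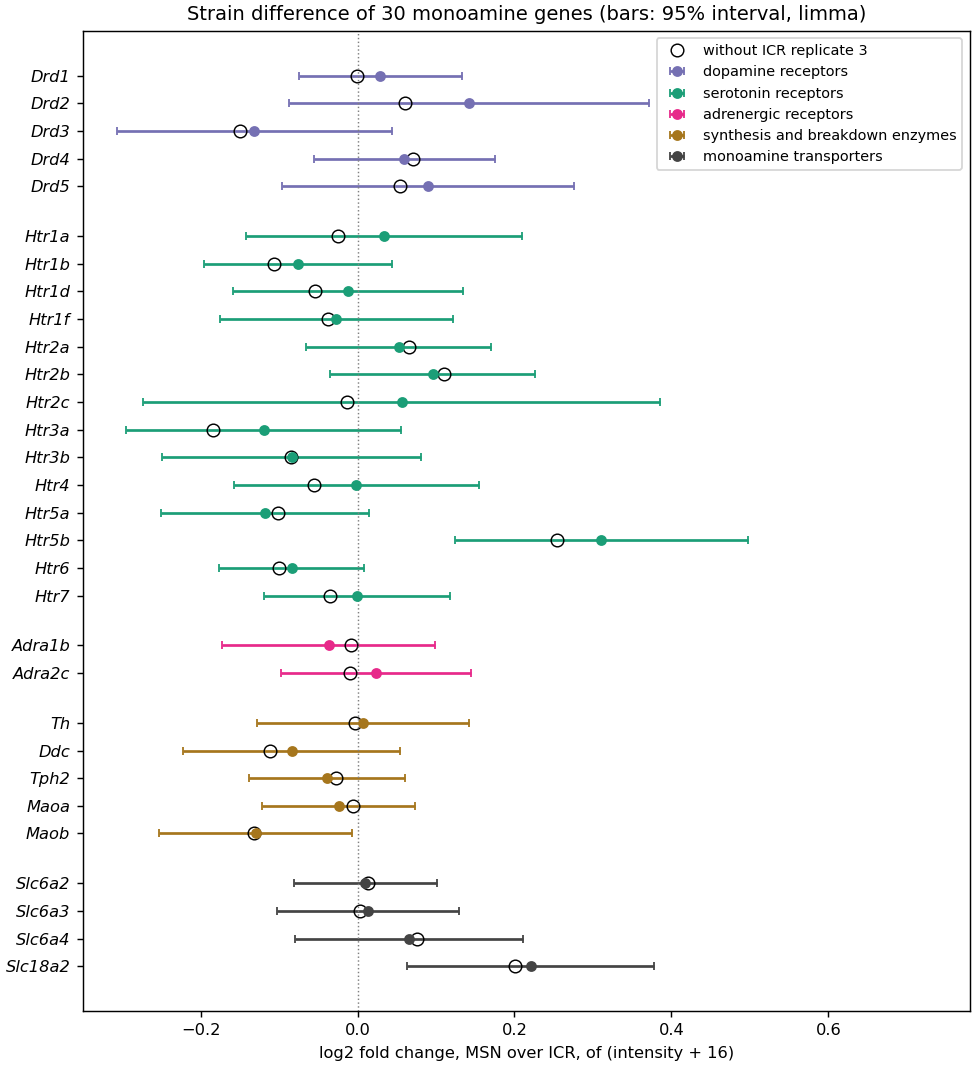
Log2 fold change of MSN over ICR mice, on the scale log2(intensity + 16), for each of the 30 genes measured, grouped by role. Filled points and bars are the limma estimate and its 95% interval from 6 MSN and 6 ICR mice, and open circles are the estimate without ICR replicate 3; the intervals of Htr5b and Slc18a2 lie above 0 and that of Maob below 0, while all the others cross 0.

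Of the dopamine receptors, 4 of 5 had a fold change above 0 and 0 were called. Their median log2 fold change was 0.06, against -0.01 over all clusters, and without ICR replicate 3 it was 0.05 with 3 of 5 above 0. Drd2, the receptor that lowers cAMP and is the target of antipsychotic drugs, had intensities from 598 through a median of 703 to 899 in MSN mice, and from 483 through 684 to 723 in ICR mice. The upper MSN mice (replicates 1, 4 and 6) lay above every ICR mouse and the other MSN mice lay among them. The log2 fold change was 0.14 (SE 0.11, adjusted P-value = 0.634, limma; exact permutation P-value = 0.297, two-sided). The lowest of the 12 values was that of ICR replicate 3, and without it the fold change was 0.06 and the ICR mean 686 ± 43.6 (SD, n = 5).

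Drd3, a receptor of the same class best known from the ventral striatum, was the one dopamine receptor with a fold change below 0. It ran from 172 through 199 to 208 in MSN mice and from 169 through 218 to 261 in ICR mice. The MSN values were packed within the range of the ICR values, of which 3 were above all MSN mice and 1 below. The log2 fold change was -0.13 (SE 0.08, adjusted P-value = 0.542, limma; exact permutation P-value = 0.190). It was -0.20 without ICR replicate 5, the lowest mouse (unadjusted P-value under 0.05, adjusted P-value = 0.268, limma), and -0.08 without ICR replicate 2, the highest.

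The remaining dopamine receptors overlapped throughout. Drd1, the main cAMP-raising receptor, averaged 688 ± 29.4 in MSN and 675 ± 48.9 in ICR mice (log2 fold change 0.03). Drd5, the other receptor of that class and one found on hippocampal neurons, averaged 693 ± 79.2 in MSN and 650.3 ± 81.5 in ICR mice (0.09). Drd4, again of the cAMP-lowering class, averaged 328 ± 24.9 in MSN and 314 ± 20.3 in ICR mice (0.06). The adjusted P-values of these 3 genes were 0.846, 0.716 and 0.697 (limma). Without ICR replicate 3 the fold changes were -0.0001 for Drd1, 0.05 for Drd5 and 0.07 for Drd4.

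The 14 serotonin receptors held both the gene with the largest fold change among the 30 and most of the genes below 0. Fold changes were above 0 in 5 and below 0 in 9, with a median of -0.01, and 0 were called. Without ICR replicate 3 only 3 of the 14 were above 0 (Htr2a, Htr2b and Htr5b), with a median of -0.05.

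Htr5b, a serotonin receptor that in rodents is known from the CA1 field, the habenula and the dorsal raphe, ran from 347 through 382 to 439 in MSN mice and from 252 through 327 to 357 in ICR mice. In 5 of 6 MSN mice it was higher than in any ICR mouse, and the last MSN mouse, replicate 6, was above the ICR median. The means were 389.8 ± 32.8 in MSN and 313 ± 46.5 in ICR mice (SD, n = 6 each). Every ICR value was below the array medians of 373 to 389 over clusters with a gene. No detection call tells such intensities from background. The log2 fold change of 0.31 (SE 0.09) corresponds to a 95% interval of 1.09 to 1.41-fold. The gene did not pass the threshold over all clusters, with P-value = 0.00311 and adjusted P-value = 0.134 (limma) beside an exact permutation P-value of 0.00649, where the smallest that 6 against 6 mice allow is 0.00216. The ICR mice with the lowest values were replicates 1 and 3. Without replicate 3 the ICR mean was 325 ± 40.0, the fold change 0.25, the adjusted P-value 0.165 (limma) and the exact permutation P-value 0.00866.

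Of 12 measured markers of hippocampal neurons, 10 had a fold change above 0, with a median of 0.10, and without ICR replicate 3 there were 8 above 0, with a median of 0.05. With all mice 1 of them was called (0.303% of all clusters were called higher), and without ICR replicate 3 there were 0. At an unadjusted P-value under 0.05 (limma) 4 were higher (5.18% of all clusters) and 0 lower. These were Bok, Lct (log2 fold change 0.29), Wfs1 (0.17) and Neurod6 (0.15). Without ICR replicate 3 there were 3, Bok, Lct and Neurod6, again higher (5.21% of all clusters). The called gene was Bok, a BCL2 family member enriched in hippocampal pyramidal cells of the mouse, with a log2 fold change of 0.36 and adjusted P-value = 0.0305 (limma), which was 0.0546 without ICR replicate 3. The summed intensity of the list was 18329.8 to 21045 in MSN and 16918 to 20585 in ICR mice. Of the 10 markers of thalamus and habenula, 3 had a fold change above 0, with a median of -0.02, and 0 were called. The part of these markers in the Htr5b difference was not tested. Htr5a, the close relative of Htr5b, went the other way, at 556 ± 36.3 in MSN and 606 ± 57.4 in ICR mice, with a log2 fold change of -0.12 (adjusted P-value = 0.457, limma).

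Htr6, a cAMP-raising receptor, ran from 361 through 396 to 409 in MSN mice and from 385 through 418 to 438 in ICR mice. In 4 ICR mice it was above all MSN mice, and the other ICR mice, replicates 3 and 6, were among them. The log2 fold change was -0.08 (SE 0.04, P-value = 0.0724, adjusted P-value = 0.445, limma; exact permutation P-value = 0.0693). Without ICR replicate 3 it was -0.10, with P-value = 0.0416 and adjusted P-value = 0.337 (limma) and an exact permutation P-value of 0.0390.

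**Figure D2:**
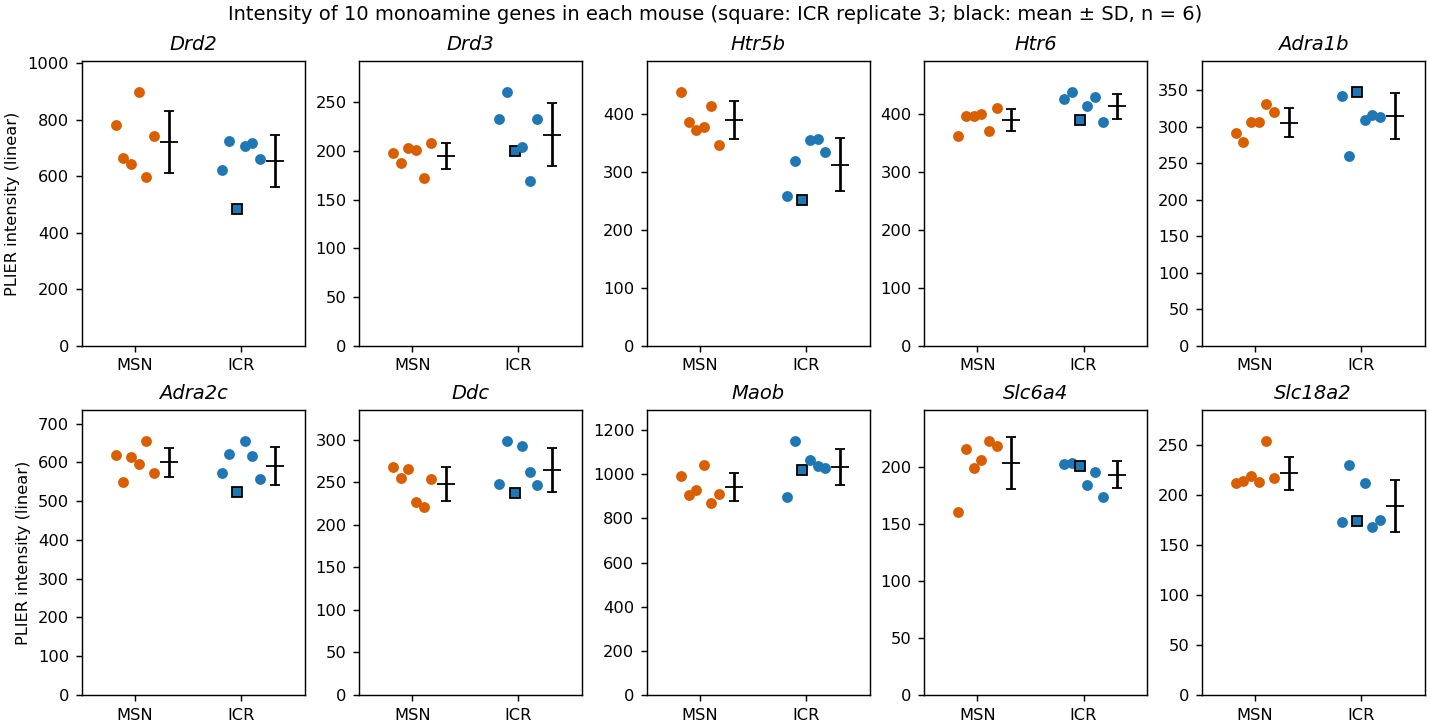
PLIER intensity (linear axis from 0) in each of the 6 MSN and 6 ICR mice for the 10 genes given mouse by mouse, with the mean and SD of each strain beside the points and ICR replicate 3 drawn as a square. Htr5b has 5 of 6 MSN mice above every ICR mouse, Slc18a2 has 4 ICR mice below every MSN mouse, and every gene has some overlap between the strains.

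The ion channel pair, Htr3a and Htr3b, lay below 0 in both genes. Htr3a, which in the hippocampus marks a set of interneurons, ran from 172 through 204 to 222 in MSN mice and from 170.2 through 218 to 249 in ICR mice, and its log2 fold change was -0.12 (adjusted P-value = 0.588, limma). ICR replicate 3 had the lowest of the 12 values. Without this mouse the ICR mean was 228 ± 18.4 against 199 ± 18.6 in MSN mice, and the log2 fold change was -0.18 (P-value = 0.0150, adjusted P-value = 0.229, limma; exact permutation P-value = 0.0325). Htr3b averaged 197 ± 23.0 in MSN and 209 ± 21.8 in ICR mice (log2 fold change -0.08).

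Across the mice, Htr3a and the mean log2 level of 14 interneuron markers had no linear relation (Pearson r = -0.04, permutation P-value = 0.907; Spearman rho = 0.36, permutation P-value = 0.256; n = 12). ICR replicate 3 had the highest marker level and the lowest Htr3a value. Without it r was 0.62 (permutation P-value = 0.0430, adjusted over 4 relations 0.0860) and rho 0.76 (permutation P-value = 0.00840, adjusted 0.0168), and without the 2 mice farthest from the median marker level r was 0.68 (permutation P-value = 0.0286). Within the strains no relation passed: r was 0.38 and rho -0.03 in the 6 MSN mice (exact permutation P-values 0.483 and 1.0), and r was -0.62 and rho 0.03 in the 6 ICR mice (exact permutation P-values 0.210 and 1.0). The values within ICR mice include replicate 3, and the relation within the other ICR mice was not tested. The pooled value changed sign with 1 mouse, and 0 of the 14 interneuron markers were called between the strains. That mouse, ICR replicate 3, read above the other 11 in Pvalb (2286 against 841 to 1102) and Cnr1 (2624 against 2141 to 2321). It read below them in Dlx1, Lhx6 and Slc32a1. The part of its cerebellar transcripts in its marker level was not tested.

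Htr2c, a receptor of neurons and, at very high level, of the choroid plexus epithelium that secretes cerebrospinal fluid, varied more between mice than any other of the 30 genes in either strain. It ran from 734 through 1004 to 1382 in MSN mice and from 768 through 966 to 1441 in ICR mice, a coefficient of variation of 21.1% in MSN and 24.0% in ICR mice. The highest values were those of MSN replicate 4 and ICR replicate 2. The strains overlapped over nearly their whole range, with a log2 fold change of 0.06 (95% interval -0.27 to 0.39, adjusted P-value = 0.911, limma) that was -0.01 without ICR replicate 3.

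Htr2c went together with the choroid plexus markers, mouse by mouse. Its log2 level and the mean log2 level of 11 choroid plexus genes, among them the transthyretin gene Ttr, had r = 0.95 over the 12 mice (permutation P-value = 3e-05, adjusted over 4 relations 0.00012) and rho = 0.92 (permutation P-value = 0.0001, adjusted 0.0004). Within the strains r was 0.99 in MSN (exact permutation P-value = 0.00278) and 0.98 in ICR mice (exact permutation P-value = 0.00417), or 0.0111 and 0.0167 adjusted over 4 relations, and rho was 0.94 in each. It remained 0.95 without the 2 mice farthest from the median marker level, and 0.95 without ICR replicate 3. Summed over the 11 genes the marker intensity spanned 10333 to 25480.3 in MSN and 8554 to 25621 in ICR mice, and Ttr alone spanned 6563 to 13193 in MSN and 5475 to 13266 in ICR mice. All 11 had a fold change above 0 and 0 were called or had an unadjusted P-value under 0.05.

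**Figure D3:**
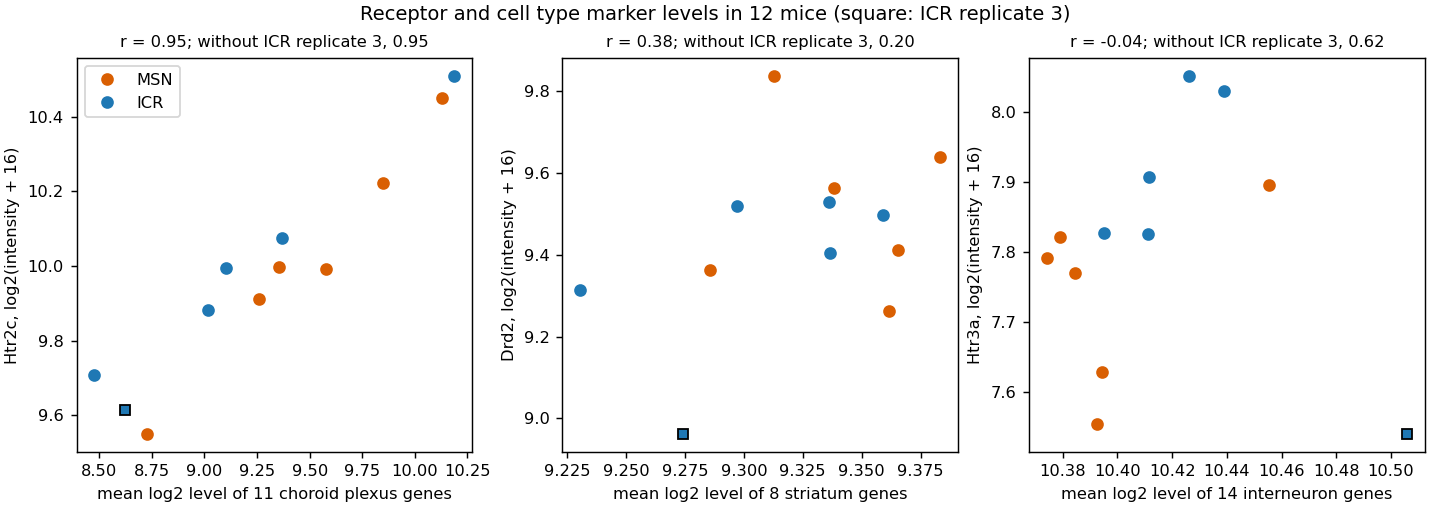
Log2(intensity + 16) of Htr2c, Drd2 and Htr3a in each of the 12 mice against the mean log2 level of markers of choroid plexus (11 genes), striatum (8 genes, without the dopamine receptors) and interneurons (14 genes); ICR replicate 3 is a square. Htr2c lies close to a line in both strains (r = 0.95), whereas Drd2 (r = 0.38) is scattered and Htr3a (r = -0.04) depends on the square point.

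The dopamine receptors were set against markers of the neighbouring striatum, where Drd1 and Drd2 are abundant. Neither followed them: r was 0.22 for Drd1 (permutation P-value = 0.499) and 0.38 for Drd2 (permutation P-value = 0.225, adjusted 0.450), rho was 0.33 and 0.36, and for Drd2 r was -0.09 without the 2 mice farthest from the median marker level. Without ICR replicate 3 r was 0.003 for Drd1 and 0.20 for Drd2. With 12 mice a moderate relation could go unseen.

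The other serotonin receptors differed less between the strains than within them. Among the cAMP-lowering Htr1 family, Htr1a, the autoreceptor of raphe neurons and also a receptor of hippocampal pyramidal cells, spanned 998 to 1243 in MSN and 875 to 1251 in ICR mice, with a log2 fold change of 0.03, which was -0.02 without ICR replicate 3. Htr1b, which sits on axon terminals, averaged 864 ± 66.2 in MSN and 911 ± 58.8 in ICR mice (-0.08). Htr1d and Htr1f were within 0.03 of no change on the log2 scale. Without ICR replicate 3 the fold changes were -0.11 for Htr1b, -0.05 for Htr1d and -0.04 for Htr1f.

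Of the phospholipase-coupled receptors, Htr2a, the target of psychedelic drugs, averaged 1411 ± 115 in MSN and 1358 ± 75.3 in ICR mice (log2 fold change 0.05). Htr2b, better known from heart and gut, had 90.8 ± 8.45 in MSN and 83.9 ± 7.80 in ICR mice (0.10). The cAMP-raising Htr4 and Htr7 were at 919 ± 47.1 and 262 ± 17.1 in MSN mice, against 925 ± 119 and 262 ± 21.1 in ICR mice, both with a log2 fold change that rounds to 0. ICR replicate 3 was the lowest of the 12 mice in both genes, and without it the fold changes were -0.05 for Htr4 and -0.03 for Htr7. The adjusted P-values (limma) of these 4 genes ran from 0.556 to 0.998.

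Set by signaling route, the median log2 fold change was 0.00 for the 5 cAMP-raising receptors, -0.01 for the 9 cAMP-lowering ones, 0.05 for the 4 that act through phospholipase C and -0.10 for the ion channel pair. Htr5b, whose coupling is less settled, was not assigned. The medians without ICR replicate 3 were -0.03, -0.04, 0.03 and -0.13 in the same order. These medians are descriptions over few genes.

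Of the adrenergic receptors, Adra1b, which acts through phospholipase C, ran from 278 through 306 to 332 in MSN mice and from 259 through 315 to 348 in ICR mice. Adra2c, a cAMP-lowering receptor that also sits on noradrenergic terminals, ran from 549 through 605 to 655 in MSN mice and from 524 through 594 to 656 in ICR mice. In both genes each strain covered most of the range of the other. The log2 fold changes were -0.04 for Adra1b (adjusted P-value = 0.852, exact permutation P-value = 0.604) and 0.02 for Adra2c (adjusted P-value = 0.897, exact permutation P-value = 0.703), and the sign for Adra2c changed without ICR replicate 3 or MSN replicate 5. For Adra1b the fold change was -0.01 without ICR replicate 3, its highest mouse, and without ICR replicate 2, the lowest, it was -0.09. The median over both genes was -0.01, the same to 2 decimals as that of the serotonin receptors and of all clusters.

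Of the 5 enzymes, 4 had a fold change below 0, with a median of -0.04 and 0 called, and without ICR replicate 3 all 5 were below 0, with a median of -0.03. Maob, a monoamine oxidase that breaks down dopamine and trace amines and is known from astrocytes and serotonergic cells, ran from 872 through 919.8 to 1041 in MSN mice and from 896 through 1032 to 1152 in ICR mice. In 5 of 6 MSN mice it was below every ICR mouse other than replicate 1, the lowest of that strain. The log2 fold change was -0.13 (SE 0.06, 95% interval -0.25 to -0.01), with P-value = 0.0397, adjusted P-value = 0.362 (limma) and exact permutation P-value = 0.0584. Without ICR replicate 3 the P-value was 0.0517 (limma).

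Maoa, the isoform that prefers serotonin and noradrenaline and neighbours Maob on the X chromosome, averaged 471 ± 26.1 in MSN and 479 ± 26.0 in ICR mice (log2 fold change -0.02). Ddc, the decarboxylase that makes dopamine and serotonin from their precursors, ran from 221 through 255 to 268 in MSN mice and from 238 through 255 to 299 in ICR mice. Its medians were alike, and the fold change was -0.08 (adjusted P-value = 0.640, limma, and exact permutation P-value = 0.251). ICR replicates 2 and 4 lay above every MSN mouse, and MSN replicates 4 and 5 lay below every ICR mouse.

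The rate-limiting enzymes showed little difference. Th, tyrosine hydroxylase of the catecholamine path, averaged 159.9 ± 12.5 in MSN and 159 ± 15.9 in ICR mice. Tph2, the neuronal tryptophan hydroxylase of serotonin synthesis, averaged 103 ± 4.99 in MSN and 106 ± 7.84 in ICR mice. Both are made in cell bodies outside the hippocampus, and 0 of the 11 measured markers of monoamine cell bodies were called. Of these markers 7 had a fold change above 0, with a median of 0.01. Their summed intensity was 5282 to 5820.2 in MSN and 5726 to 6350.0 in ICR mice. Much of the sum was 1 gene, Nr4a2, which averaged 3115 in MSN and 3257 in ICR mice. The cerebellar marker En2, also on the list, read 673 in ICR replicate 3 against 101 to 135 in the other mice. No detection call accompanies the values, so a low intensity cannot be told from background.

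All 4 transporters had a fold change above 0, with a median of 0.04, also without ICR replicate 3, and 0 were called. Their intensities, at most 255 in any mouse, were below the array medians of 373 to 389. Such low intensities cannot be told from background, and this holds for Slc18a2 too. The same limit holds for other genes below those medians in every mouse, among them Drd3, Htr2b, Htr3a, Htr3b, Htr7 and Ddc. Slc18a2, the vesicular monoamine transporter VMAT2 that loads all of these transmitters into vesicles, ran from 212 through 216 to 255 in MSN mice and from 168 through 175 to 230.4 in ICR mice. The ICR mice fell into 4 below every MSN mouse and 2, replicates 2 and 4, within the MSN range, while all 6 MSN mice were above the ICR median. The means were 222 ± 16.3 in MSN and 189 ± 25.9 in ICR mice, and the log2 fold change was 0.22 (SE 0.07, 95% interval 1.05 to 1.30-fold), with P-value = 0.00930 and adjusted P-value = 0.213 (limma) and exact permutation P-value = 0.0368. Without ICR replicate 3 it was 0.20, with adjusted P-value = 0.270 (limma) and exact permutation P-value = 0.0736.

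The transporters of the cell surface lay closer together. Slc6a4, the serotonin transporter and target of the common antidepressants, ran from 161 through 211 to 223 in MSN mice and from 174 through 198 to 204 in ICR mice. MSN replicate 1 had the lowest of the 12 values and 4 other MSN mice were above all ICR mice. The log2 fold change was 0.07 (adjusted P-value = 0.734, limma; exact permutation P-value = 0.405). Without MSN replicate 1 it was 0.13 (unadjusted P-value under 0.05, adjusted P-value = 0.312, limma). Slc6a3, the dopamine transporter, averaged 169 ± 14.9 in MSN and 167 ± 7.71 in ICR mice, and Slc6a2, the noradrenaline transporter, 123 ± 4.13 in MSN and 122 ± 8.38 in ICR mice, with adjusted P-values of 0.944 and 0.946 (limma).

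The spread between mice was described for each strain, since one is inbred and the other outbred. The SD of the log2 values was smaller in MSN mice for 23 of the 30 genes and larger in 7 (50.0% of all clusters had the larger SD in MSN mice). Without ICR replicate 3 the counts were 18 and 12 (54.5% of all clusters with the larger SD in MSN mice). The median SD of the 30 genes was 0.11 in MSN and 0.12 in ICR mice, or 0.11 in ICR mice without replicate 3, and that of all clusters 0.09 in MSN and 0.09 in ICR mice. Htr4 shows the difference, with a span of 863 to 999 in MSN mice against 760.2 to 1082 in ICR mice. The lowest ICR value was that of replicate 3, and without it the ICR span was 856 to 1082. Slc6a3, with 140 to 181 in MSN and 158 to 179 in ICR mice, shows the opposite.

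Some mice were at the ends of the range more often than others. ICR replicate 3, the mouse with the cerebellar transcripts, had the lowest of the 12 values in 9 of the 30 genes (Drd1, Drd2, Htr1a, Htr1d, Htr3a, Htr4, Htr5b, Htr7 and Adra2c), against 11.6% of all clusters, and the highest in 1, Adra1b. ICR replicate 2 had the highest value in 7 of the 30 genes, against 13.0% of all clusters. MSN replicates 4 and 6 had the lowest value in 0 of the 30 genes, against 4.0% and 8.01% of all clusters. MSN replicate 4 had the highest in 2, Drd2 and Drd5, against 4.03% of all clusters, and MSN replicate 6 in 3, against 7.77%.

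**Figure D4:**
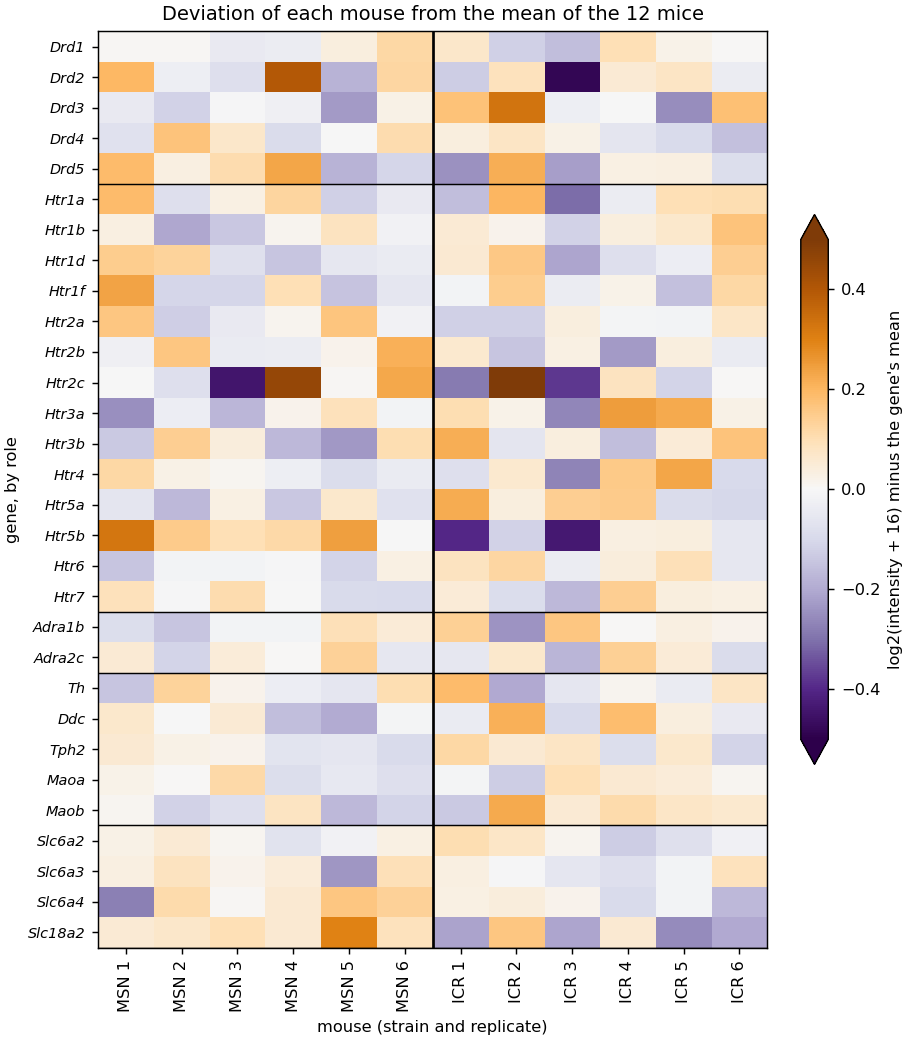
Deviation of each mouse from the mean of the 12 mice, on the scale log2(intensity + 16), for the 30 genes in order of role (columns: 6 MSN mice, then 6 ICR mice). The strongest colours are single mice in Drd2, Htr2c and Htr5b, ICR replicate 3 is the lowest mouse in 9 of the genes, and 5 of 6 MSN mice in Htr5b and all 6 in Slc18a2 are above the mean while ICR mice lie on both sides of it.

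Of 68 genes around this machinery, in 6 lists, 0 were called (0.777% of all clusters) and 7 had an unadjusted P-value under 0.05 (12.7% of all clusters). The counts without ICR replicate 3 were 0 (0.824%) and 9 (13.8%). Among the 9 further enzymes and transporters measured was Slc22a2, a cation transporter of low affinity for monoamines. Its log2 fold change was -0.23 (adjusted P-value = 0.268, limma). Of 7 genes for tetrahydrobiopterin, the cofactor of Th and Tph2, Qdpr, which regenerates it, was at 0.12 (adjusted P-value = 0.286). Pcbd2, of the same recycling path, was at -0.09 (adjusted P-value = 0.336). Of 5 histamine and trace amine receptors, Taar1, the trace amine receptor, was at -0.25 (adjusted P-value = 0.349, and 0.0571 without ICR replicate 3). Slc22a2 and Taar1 read at most 298 and 122 in any mouse, below the array medians, where intensities cannot be told from background.

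Downstream of the receptors, 17 G protein and adenylyl cyclase genes held Adcy9, a cyclase, at 0.14 (adjusted P-value = 0.155, limma) and Adcy2, another, at -0.09 (adjusted P-value = 0.372). ICR replicate 3 had the highest Adcy2 value, and without it Adcy2 was at -0.06 and no longer had an unadjusted P-value under 0.05 (adjusted P-value = 0.480, limma). Adcy1, a further cyclase, and Gnaq, a G protein of the phospholipase route, came under that mark without this mouse, at 0.10 (adjusted P-value = 0.331) and -0.12 (adjusted P-value = 0.277). The 13 receptor kinases, arrestins and RGS proteins held Grk4, a kinase that turns off dopamine receptors in kidney, at 0.23 (adjusted P-value = 0.139, limma). Its intensity, at most 182 in any mouse, was also below the array medians. Among 17 effectors of cAMP and phospholipase signaling 0 had an unadjusted P-value under 0.05, and without ICR replicate 3 there was 1, Ppp1r1b, the phosphatase inhibitor DARPP-32, at 0.13 (adjusted P-value = 0.349, limma).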

How the data were processed

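Hippocampal RNA of 6 MSN and 6 ICR mice was hybridized to 1 array per mouse. The authors used Affymetrix Power Tools 1.12.0 to turn probe signals into the deposited intensity values, by the PLIER algorithm after background correction by GC bin. Gene names came from the platform annotation. Here 16 was added, log2 taken, and strain fitted as the only term with limma 3.58.1 in R 4.3.3 (lmFit, eBayes) over 23410 clusters, with Benjamini-Hochberg adjustment and a threshold of 0.05. Single genes were also compared by a two-sided exact permutation test, and 4 relations across mice by permutation (100000 resamples; exact within a strain; scipy 1.17.1). The fit was tested on simulated data.

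Mouse-by-mouse values are given for genes with an unadjusted P-value under 0.05 and the pair with the smallest P-values in each role, and for Htr2c and Htr3a, added for the marker relations. Members and lists were chosen with earlier results of these data known. The cerebellar markers and the repeats of the relations and SD counts without ICR replicate 3 were chosen after seeing the data. The number of arrays limits the precision. Alternatives were other scalings, pseudocounts, filters and model options, a block for the replicate number, and the omission of each mouse in turn.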

Additional observations from a re-analysis of the deposited data

Results flagged for a closer look

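Dixon's test at 95% was applied to each strain in each of the 30 genes, 60 groups in all, and picked out 3 values, in 2 MSN mice. Chance gives about 1 in 20 groups, which is also 3 of 60. Slc6a3 was 139.8 in MSN replicate 5, below 170.1 to 181 in the other 5 MSN mice. Slc6a4 was 160.6 in MSN replicate 1, below 199 to 223 in the others. Slc18a2 was 254.8 in MSN replicate 5, above 212 to 219 in the others, so that the remaining MSN mice lay within a narrow range.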

How the results depend on the processing

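The count of 0 called genes among the 30 held under every alternative run. Htr5b and Slc18a2 kept their direction and an unadjusted P-value under 0.05 in all 22 alternatives in which they were tested, with adjusted P-values of 0.0984 to 0.235 for Htr5b and 0.0548 to 0.359 for Slc18a2 (limma), and Maob had such a P-value in 12 of 23. Among clusters above the median mean, which hold 14 of the 30 genes, 1 had an unadjusted P-value under 0.05. Over all clusters the count called, 182, was 279 with a pseudocount of 64, 315 with array weights and 91 to 210 when leaving out each mouse, lowest without MSN replicate 4 and also 93 without ICR replicate 6, 103 without MSN replicate 3 and 118 without ICR replicate 5. Calls were 71 higher and 111 lower in the main setting, 131 and 109 after quantile normalization, and 115 and 89 with the same median per array. In these 2 scalings the median log2 fold changes of serotonin and adrenergic receptors turned positive. Both groups were at 0.01 after quantile normalization and 0.02 with the same median per array. The median of all clusters moved to 0.01 and 0.02 as well, and that of the dopamine receptors was 0.085 in both scalings. Between mice of the same number the deviations from the strain means had low correlations (r -0.13 to 0.12). Without a reference value these do not show whether equal numbers share a batch. With the replicate block 42 clusters were called. Leaving out each mouse, the log2 fold change of Adra2c ran from -0.009688 without ICR replicate 3 to 0.0536, and was -0.001115 without MSN replicate 5. The correlation of Htr3a with interneuron markers was 0.616 without ICR replicate 3. No cause of these shifts was tested. Untransformed intensities give no log2 median and so no value for the group medians, and averaging a gene's clusters changes no gene here, since each has 1.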
